A study of Mus musculus with 140 samples.

Results

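The cortex of wild-type mice given an antisense oligonucleotide (ASO) against TDP-43 was profiled for N6-methyladenosine (m6A) with m6A-eCLIP, a method in which an anti-m6A antibody is crosslinked to RNA and the bound fragments are sequenced beside an input. The 6 immunoprecipitation (IP) libraries were taken by their titles, 3 labelled TDP-43 ASO and 3 labelled CTRL for PBS, out of 70 IP libraries with a cluster list and 140 libraries in the series. All 6 came from male C57Bl/6J mice listed as 2 months old. They were dosed at 5 weeks of age by an intracerebroventricular bolus of 500 ug ASO or of PBS, and tissue was taken 2 weeks later. The controls received PBS and no control oligonucleotide, so the TDP-43 target and the presence of an oligonucleotide cannot be told apart. The cluster lists hold no measure of TDP-43 RNA or protein level, so the knockdown itself was not checked here. Nothing in the labels ties a library to its own mouse, and p-values measure the spread between these libraries.

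TDP-43, encoded by Tardbp, is a nuclear RNA-binding protein that binds UG-rich RNA, represses cryptic exons and regulates its own transcript through its 3′ UTR. Its loss from the nucleus is a hallmark of amyotrophic lateral sclerosis and frontotemporal dementia. m6A is placed on nascent mRNA by a METTL3 and METTL14 complex, removed by FTO and ALKBH5, and read by YTH-domain proteins. It is typically found in the DRACH context (D is A, G or T; R is A or G; H is A, C or T, in DNA letters) and is known to gather near stop codons and in 3′ UTRs. The comparison asks whether loss of TDP-43 changes where and how strongly RNA is methylated.

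Each listed cluster is an interval with a log2 enrichment of IP over input and a −log10 p. The intervals were nearly the same within a treatment (99.2% to 99.3% identical between libraries) and nearly all different between treatments (2% identical), so cluster numbers were not compared. Clusters were instead joined into stretches, runs of overlapping clusters on 1 strand. Of these, 116506 stretches covering 15559416 bases were listed in both treatments, 35732 in PBS only and 32572 in ASO only. The 37328 stretches with a mean −log10 p of 3 or more over the 6 libraries were tested (88.0% held a DRACH match, against 80.2% of the listed stretches that were not tested). Their m6A score is the listed log2 enrichment minus the library's median, and a gene's score is the mean over its stretches, for 5165 genes with at least 3. Clusters often abut and some stretches are only a few bases wide, so the stretches of a gene are not independent. Each library was scored over the intervals of its own treatment. A difference in cluster boundaries can therefore enter the change between treatments but not the spread within one. The p-values below do not cover that difference. The methods state a target depth, but the files give no counts, so the depth behind each value is unknown. In bulk cortex, fewer cells of a type and less methylated RNA per cell cannot be told apart.

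Titles and cell type labels put these libraries in cortex, while the treatment text in the labels names striatum and the study's methods name both regions. These libraries were set beside cortex and striatum of non-transgenic (NT) mice. The NT mice were 3 months old, of both sexes and of a B6CBA line, so age, sex and strain differ too. The list of 23 cortical excitatory neuron genes held 0.238% to 0.262% of enriched bases, against 0.282% to 0.297% in NT cortex and 0.192% to 0.223% in NT striatum. By share it lay between the regions. In bases it held 14875 to 15720, within NT cortex (13095 to 15888) and above NT striatum (9897 to 13124). The list of 39 medium spiny neuron genes held 0.352% to 0.370% of enriched bases, against 0.367% to 0.424% in NT cortex and 0.449% to 0.491% in NT striatum. By share the second list lay nearer to NT cortex. In bases it held 21079 to 23816, against 19407 to 21344 in NT cortex and 24581 to 27534 in NT striatum. Among the other cell type lists, the 16 vascular genes held 0.0776% to 0.0897% of enriched bases in the ASO libraries and 0.0681% to 0.0699% in PBS. Of these genes, 11 were covered in each ASO library, and 10, 11 and 11 in PBS 1, 2 and 3. The part of vascular RNA in the results below was not tested. The library PBS 3 had the lowest correlations with the others over tested stretches (0.809 to 0.833, against 0.846 to 0.880 among the remaining libraries).

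Short windows of RNA-strand sequence (mm10, 30 bases, the DRACH match nearest the middle of the stretch in capitals) are shown, because the text below refers to them. They come from Tardbp, from stretches of lowest p and from 1 stretch of Ndrg4, which was picked as a gene and not as a stretch.
Tardbp, 3′ UTR, chr4:148617370-148617399, minus strand: gagcgcgtgcagAGACTtggtggtggaaaa
Tardbp, 3′ UTR, chr4:148616267-148616296, minus strand: tgatagctttaaGAACTagtagggtgggtt
App, 5′ UTR, chr16:85173610-85173639, minus strand: cggcggcggcgcGGACAcagccagggcgcg
Spata7, coding sequence, chr12:98658476-98658505, plus strand: ggaaaagcactcTGACCtcttctctaacaa
Tmem218, 5′ UTR, chr9:37208344-37208373, plus strand: agtcctggtgagGAACCtgagagccgggtg
Nrcam, 3′ UTR, chr12:44598710-44598739, plus strand: agaccagagcaaGAACAtgactcagtcaaa
Ndrg4, 3′ UTR, chr8:95714148-95714177, plus strand: ccagtgtgtcacAGACAatacttgagaagt

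No gene and no stretch differed between ASO and PBS after adjustment. With limma and Benjamini-Hochberg adjustment, 0 of 5165 genes passed (background 0.0%), and 545 (10.6%) had an unadjusted p under 0.05, 227 higher (4.39%) and 318 lower (6.16%) in ASO. Of 37328 stretches 0 passed (0.0%), with 3654 (9.79%) at an unadjusted p under 0.05. The lowest limma adjusted p was 0.302 for a gene and 0.053 for a stretch. The 95% interval of the change lay within ±1 on the log2 scale for 5120 genes (99.1%) and within ±0.5 for 4313 (83.5%). These intervals concern change relative to the library median. Like the p-values, they do not cover the difference in cluster boundaries. Centring removes a shift shared by all stretches. The medians of listed log2 enrichment before centring were 1.75, 1.73 and 1.84 in PBS and 1.68, 1.74 and 1.75 in ASO. Fitted together with 16 cortex libraries of another experiment, which lends more degrees of freedom to the estimated spread, 14 of 4497 genes passed (0.311%), 2 higher (Efr3b and Ndrg4) and 12 lower. That fit was added after the data were seen, and without 1 library at a time it called 0 to 6 genes.

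The genes with the lowest p in each direction are described by value, since none passed. The groups did not overlap in 926 of all genes tested (17.9%), 441 with ASO higher (8.54%) and 485 with ASO lower (9.39%), so a gap between groups marks out no gene by itself. Ndrg4, an N-myc downstream regulated gene expressed in neurons, had scores of -1.22, -1.19 and -1.29 in PBS and -0.85, -0.91 and -0.78 in ASO. All 3 ASO libraries lay above all 3 PBS libraries, and the difference was 0.39 (SE 0.07, limma adjusted p = 0.302). All but the first of its 8 stretches lie in the 3′ UTR, around the window shown. Angpt2, a secreted angiopoietin of blood vessels, scored -0.08, -0.27 and 0.09 in PBS and 0.33, 1.04 and 0.78 in ASO, a difference of 0.81 (SE 0.18). Fnip2, a folliculin-interacting protein, differed by 0.37 (SE 0.08), and Efr3b, which helps hold a phosphatidylinositol 4-kinase at the plasma membrane, by 0.32 (SE 0.08). Zfp637, Pgrmc2, 5031439G07Rik and Vipas39 had differences between 0.30 and 0.39.

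Among the genes lower in ASO, Ncaph2, a condensin II subunit, scored -0.17, -0.04 and -0.03 in PBS and -0.63, -0.59 and -0.76 in ASO, a difference of -0.58 (SE 0.08, limma adjusted p = 0.302). It rests on narrow stretches of the coding sequence, and with stretches weighted by width the difference was -0.06. Vps35, of the retromer that sorts endosomal cargo, differed by -0.47 (SE 0.08), and by -0.17 with that weighting. Snu13, a U4 small nuclear RNA binding protein of the spliceosome, scored 0.17, -0.01 and 0.73 in PBS and -0.86, -0.56 and -0.96 in ASO, a difference of -1.09 (SE 0.19). PBS 3 was the highest of its libraries, and the groups did not overlap. Dvl1, a Wnt signalling adaptor, differed by -0.41 (SE 0.07), Ywhaq, a 14-3-3 protein, by -0.58 (SE 0.10) and Pitrm1, a mitochondrial peptidase, by -0.83 (SE 0.15).

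**Figure D1:**
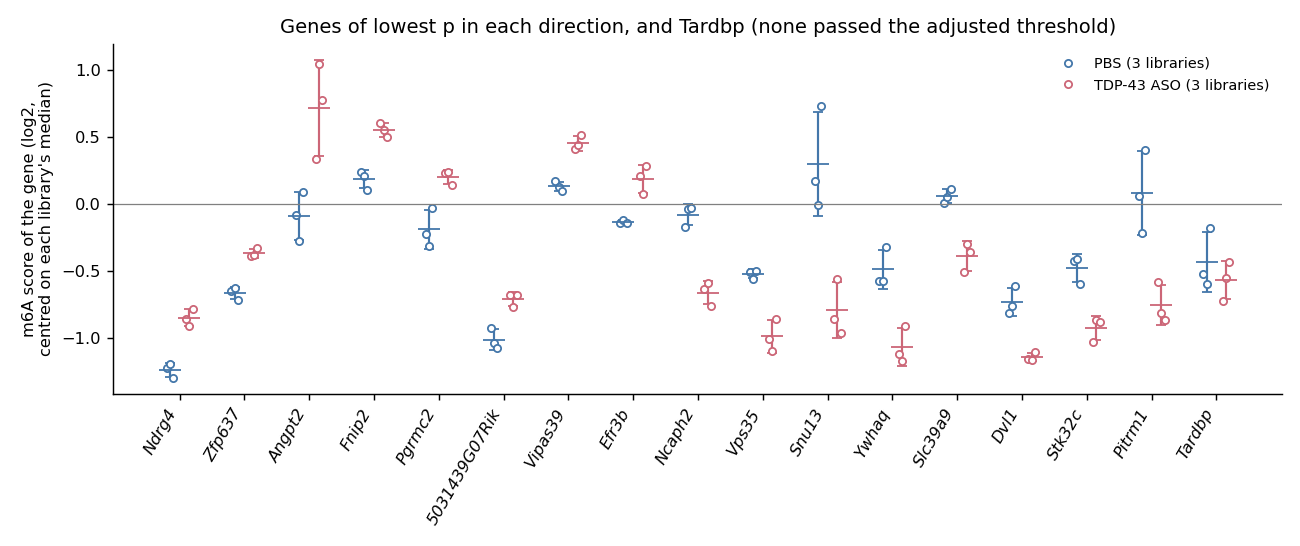
Gene m6A score (log2, centred on each library's median) in 3 PBS and 3 ASO libraries for the 8 genes of lowest p in each direction and for Tardbp; circles are libraries, the wide tick and bar are mean and SD. The groups are apart for the first 16 genes, which were picked by p, and overlap for Tardbp, where PBS 3 scored -0.18.

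Tardbp itself, the target of the ASO, held 7 tested stretches. Its scores were -0.52, -0.59 and -0.18 in PBS and -0.72, -0.55 and -0.43 in ASO. The groups overlapped, and the difference of -0.13 had a 95% interval of -0.42 to 0.15 (limma adjusted p = 0.742). Its most enriched stretch, in the 5′ UTR (chr4:148626680-148626770), held no DRACH match. It scored 0.69, 0.47 and 0.90 in PBS and -0.17, 0.30 and 0.43 in ASO. The groups did not overlap, and the difference was -0.50 (limma adjusted p = 0.491). The highest 3′ UTR stretch, with the AGACT window above, overlapped a TDP-43 site and scored 0.28, 0.27 and 0.19 in PBS and 0.59, 0.30 and 0.50 in ASO. Another 3′ UTR stretch, with the GAACT window, scored -1.03, -1.14 and -0.88 in PBS and -1.68, -1.28 and -1.21 in ASO. Neither 3′ UTR stretch passed the limma test (adjusted p = 0.645 and 0.476).

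The machinery of m6A was represented by 14 genes. Of 5 tested writer complex members, 2 of 2 erasers and 7 readers, 0 passed the adjusted threshold, and 3 had an unadjusted p under 0.05, beside 10.6% of all genes. Alkbh5, an eraser, scored -0.75, -0.48 and -0.99 in PBS and -0.48, -0.43 and -0.45 in ASO, and differed by 0.28 (SE 0.12). Fto, the other eraser, differed by -0.14 (SE 0.07), with the 95% interval from -0.31 to 0.02. Ythdf3, a cytoplasmic reader, differed by 0.22 (SE 0.09), and Eif3a, a translation initiation subunit counted among readers, by -0.36 (SE 0.12). Of the writers, Rbm15, which helps recruit the complex to RNA, had the largest difference, 0.44 (SE 0.19), while Wtap, Virma, Zc3h13 and Rbm15b lay between -0.10 and 0.09.

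Of 41 genes listed as disease or splicing targets of TDP-43, 27 were tested and 0 passed; 1 was higher (3.70%) and 5 were lower (18.5%) at an unadjusted p under 0.05, beside 4.39% and 6.16% of all genes, and the median change was -0.03, against 0.00 over all genes. Atg4b, an autophagy protease, scored -0.38, -0.46 and -0.45 in PBS and -0.87, -0.78 and -0.66 in ASO, a difference of -0.34 (SE 0.08). Kalrn, a guanine nucleotide exchange factor of dendritic spines, differed by -0.23 (SE 0.07), Unc13a, a synaptic vesicle priming factor, by -0.18 (SE 0.06), and Rsf1, a chromatin remodelling subunit, by 0.31 (SE 0.09). Long introns are a known feature of genes that depend on TDP-43. In 317 tested genes with an intron over 100000 bases, 19 were higher (5.99%) and 11 lower (3.47%) at an unadjusted p under 0.05, beside 4.39% and 6.16% of all genes. The median change was 0.04, and 195 of the 317 had a positive change, against 2630 of all 5165 genes. None passed the adjusted threshold. In the 2725 genes whose longest intron was up to 10000 bases, 111 were higher (4.07%) and 218 lower (8%), with a median of -0.01. Among 28 tested splicing factors, 0 were higher and 3 lower at that threshold, Srsf1, Hnrnpm and Pnisr, with a median of -0.08; 3 of 28 is 10.7%, the share of all genes being 10.6%. Among 34 synapse genes 2 were higher and 0 lower (5.88% in all), with a median of 0.04, the postsynaptic scaffold Dlg4 differing by 0.19 (SE 0.08) and the vesicle protein Vamp2 by 0.26 (SE 0.08). In the study's Huntington's disease striatal signature, 61 of 195 genes of the down list were tested, 3 higher and 2 lower (8.20% in all), with a median of -0.01. Of the up list, 23 of 71 genes were tested, with 2 higher and 3 lower at that threshold (21.7% in all, beside 10.6% of all genes). Its median change was -0.10, 15 of the 23 had a negative change, and 0 passed the adjusted threshold.

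The amount of methylated sequence overlapped between the treatments. Bases in clusters with −log10 p of 3 or more numbered 6112629, 5923816 and 6500416 in PBS and 6210094, 6375006 and 6250449 in ASO. The ASO libraries lay within the PBS range (two-sided exact permutation p = 0.6; with 3 against 3 libraries the smallest possible is 0.1). Under the thresholds the study used, which add a log2 enrichment of 3, the bases were 571160, 533855 and 644849 in PBS and 478848, 567763 and 599217 in ASO (exact permutation p = 0.5).

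The 5′ UTR was the part of the transcript with the largest difference of means between the 2 treatments. The mean score of its 3299 stretches was -0.335, -0.293 and -0.271 in PBS and -0.480, -0.422 and -0.351 in ASO. Every ASO library was below every PBS library, with a difference of -0.118 and an exact permutation p of 0.1, the smallest this design can give. Of the 5′ UTR stretches 0 passed the adjusted limma threshold, while 463 (14%) were lower and 90 (2.73%) higher at an unadjusted p under 0.05, beside 5.3% and 4.49% over all stretches. The difference was -0.136 on stretches with 1 cluster in each treatment that overlapped by at least 90%, and -0.0697 with stretches weighted by width. It was -0.0856 in 5′ UTR stretches with a DRACH match and -0.179 in those without. The 5′ UTR share of enriched bases was 5.57%, 5.66% and 5.68% in PBS and 4.45%, 4.83% and 5.14% in ASO. Among all listed bases, whose intervals are shared within a treatment, the share was already 5.6% in PBS and 5.1% in ASO. The shares of enriched bases are therefore not a separate replicated result.

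Named 5′ UTR stretches went both ways. A stretch of Rps15a, a ribosomal protein, scored -1.04, -0.88 and -0.68 in PBS and -2.79, -2.62 and -2.46 in ASO, with no DRACH match, and had the lowest limma adjusted p of any stretch, 0.053. Its mean listed log2 enrichment over the 6 libraries was 0.0046, so IP was about equal to input on average. That mean was 0.90 for the Tmem218 stretch and 0.59 for the App stretch described next. A Tmem218 stretch scored -0.38, -0.34 and -0.48 in PBS and -1.33, -1.43 and -1.13 in ASO. In App, which encodes the amyloid precursor protein, a 5′ UTR stretch at a TDP-43 site scored -1.61, -1.49 and -1.52 in PBS and -0.84, -0.79 and -0.71 in ASO. These were picked by lowest p, so that their groups did not overlap is no finding (16.7% of all stretches had groups apart), and none passed the adjusted threshold. Outside the 5′ UTR, a coding stretch of Spata7, a ciliary protein, differed by 0.99 (SE 0.12) and a 3′ UTR stretch of Nrcam, a neuronal adhesion molecule, by -1.09.

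**Figure D2:**
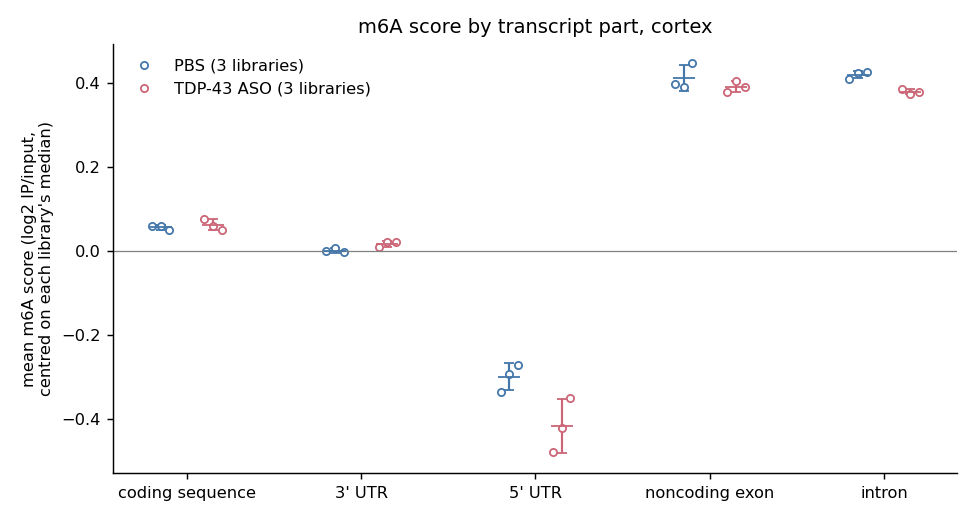
Mean m6A score (log2, centred on each library's median) of tested stretches by transcript part in 3 PBS and 3 ASO libraries; circles are libraries, the tick and bar mean and SD. The 5′ UTR shows the largest difference of means, -0.118. The groups are also apart in the 3′ UTR and in introns, and overlap in the coding sequence and noncoding exons.

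In the other parts the difference of means was smaller. The 3′ UTR score was -0.00117, 0.00699 and -0.00290 in PBS and 0.00901, 0.0213 and 0.0211 in ASO, a difference of 0.0161. Without centring that difference was -0.0329, so its direction depends on the scale. The coding sequence differed by 0.00653 (exact permutation p = 0.4). Introns scored 0.410, 0.425 and 0.426 in PBS and 0.385, 0.374 and 0.379 in ASO, a difference of -0.0410. With stretches weighted by width, the intron difference became 0.0127. In the 3′ UTR and in introns the treatments also did not overlap (exact permutation p = 0.1 for each).

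Among bins of distance from the stop codon in coding transcripts, enrichment was highest on both sides of it in all 6 libraries. Outside these bins, the library means were higher in noncoding exons (2.06 to 2.29) and introns (2.07 to 2.26). The mean listed log2 enrichment was 1.84 in the last 300 bases of the coding sequence and 1.81 in the first 300 of the 3′ UTR, and 1.63 more than 1000 bases downstream. The score within 300 bases of the stop codon, less that of farther exonic stretches, was 0.0956, 0.0928 and 0.0679 in PBS and 0.121, 0.122 and 0.113 in ASO. The ASO libraries lay above the PBS libraries by 0.0332 (exact permutation p = 0.1, the smallest possible). The farther stretches included 2734 in 5′ UTRs, and without 5′ UTR stretches the difference was 0.0189, still with the ASO libraries above, so the contrast is not separate from the 5′ UTR result. The ASO libraries also lay above for stretches with the motif GGACT (31.1% of tested stretches) less those without, at 0.154, 0.149 and 0.102 in PBS and 0.165, 0.178 and 0.175 in ASO. GGACT was in 16.7% of 5′ UTR stretches, so that contrast is not separate from the 5′ UTR result either.

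**Figure D3:**
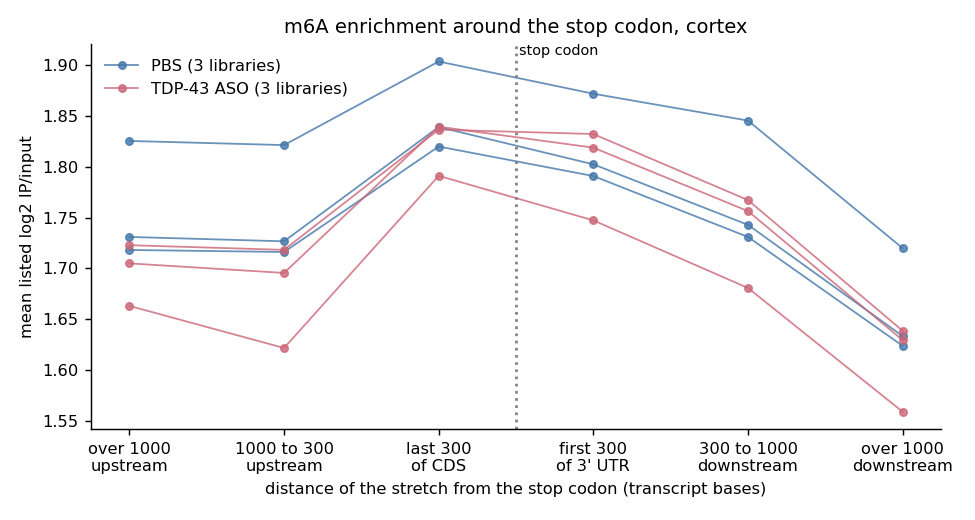
Mean listed log2 enrichment of IP over input (not centred; the axis does not start at 0) by distance from the stop codon in transcript bases, a line per library. All 6 lines peak next to the stop codon and are lowest more than 1000 bases downstream; PBS 3 is the top line throughout.

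TDP-43 sites were taken from enriched clusters of at least 4 of 8 TDP-43 eCLIP libraries of NT cortex (3 months, both sexes, B6CBA). They were overlapped by 6310 of the tested stretches, and 31018 were not. Sites scored lower than other stretches in every library, by -0.292, -0.258 and -0.191 in PBS and by -0.239, -0.301 and -0.318 in ASO. Stretches and sites were both kept by p, and depth is unknown. The part of RNA abundance in the lower score at sites was not tested. The treatments overlapped, with a difference of -0.0387 (exact permutation p = 0.4). Within the coding sequence the difference was -0.0637 (p = 0.3 by exact permutation) and within the 3′ UTR -0.0335 (p = 0.3 by exact permutation). Introns, with only 74 stretches at a site, had the opposite sign, at 0.289, 0.491 and 0.415 in PBS and 0.434, 0.210 and 0.113 in ASO, and the treatments overlapped. Stretches with TGTGT, a UG-rich pentamer in 20.3% of tested stretches, less those without, scored 0.00999, -0.00223 and -0.0133 in PBS and 0.0230, 0.0499 and 0.0305 in ASO. The ASO libraries lay above by 0.0363 (exact permutation p = 0.1). TGTGT was in 7.37% of 5′ UTR stretches and 27.7% of 3′ UTR stretches, so this contrast is not separate from the 5′ UTR result.

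**Figure D4:**
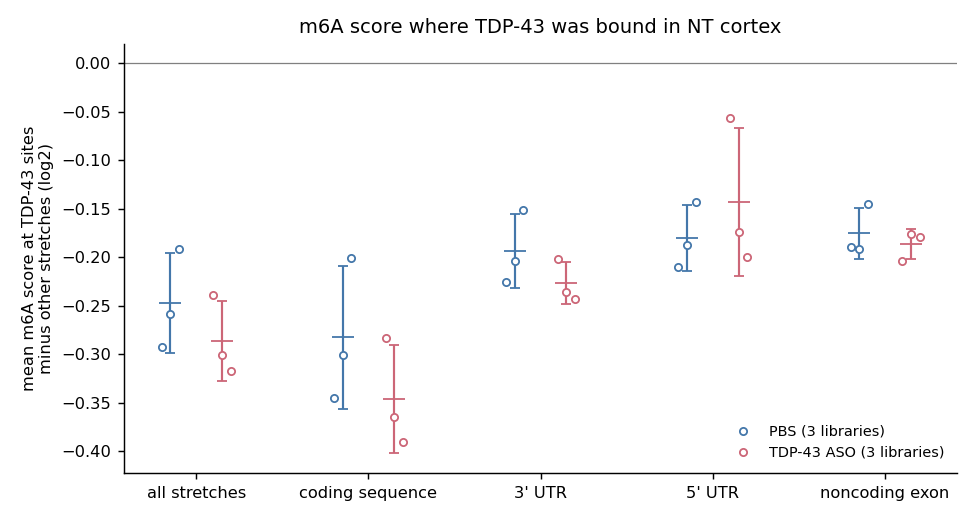
Mean m6A score at TDP-43 sites less that of other stretches (log2) in all tested stretches and within transcript parts; circles are 3 PBS and 3 ASO libraries, the tick and bar mean and SD. All values plotted are below 0 and the treatments overlap in each part shown; introns, whose values are above 0, are not plotted.

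The Huntington's disease model R6/2, a transgenic line with an expanded human HTT fragment, was measured in the same assay against NT mice of both sexes at 3 months, so the experiments also differ in age, sex, cohort and strain (C57Bl/6J against a B6CBA line), whose part in the differences cannot be told apart. On the same stretches, R6/2 differed from NT in 65 of 4497 genes in cortex (1.45%), 54 lower (1.2%) and 11 higher (0.245%). The lean to lower depends on the scale, since without centring 43 were lower and 39 higher, and with the replicate block within sex 47 and 19. In striatum it differed in 108 of 4489 genes (2.41%), 87 lower (1.94%) and 21 higher (0.468%), but in 54 genes with the replicate block within sex (46 lower and 8 higher). The 87 had a median ASO change of 0.02 in cortex. Of the 54 genes lower in R6/2 cortex, 29 were lower and 25 higher in ASO than PBS, and their median change was -0.01 with ASO against -0.25 in R6/2. The effects were then set against each other in a single limma fit of 22 libraries. They differed in 21 genes (0.467%), 10 with the higher change under ASO. Leaving out 1 PBS or ASO library gave 12, 13 and 6 genes without PBS 1, 2 and 3 and 4, 3 and 3 without ASO 1, 2 and 3. Ndrg3 was the gene called under each of those 6 fits.

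Ndrg3, another N-myc downstream regulated gene, scored -1.39, -1.33 and -1.37 in PBS and -1.18, -1.18 and -1.16 in ASO. In cortex its score ran from -1.87 to -1.60 in NT (median -1.72) and from -2.08 to -1.72 in R6/2 (median -1.94). R6/2 was lower than NT by limma (-0.21, adjusted p = 0.00322), and the ASO effect less the R6/2 effect was 0.39 (SE 0.06, limma adjusted p = 0.00745). Camk2b, a neuronal calcium and calmodulin dependent kinase, scored 0.18, 0.26 and 0.16 in PBS and 0.22, 0.34 and 0.27 in ASO. In R6/2 cortex it ran from -0.41 to -0.27 and in NT from -0.19 to 0.08, without overlap. Its effects differed by 0.36 (SE 0.07, limma adjusted p = 0.0322), a call lost when any of 5 of the 6 libraries was left out. Eef2, a translation elongation factor, and Dbn1, the actin-binding protein drebrin of dendritic spines, were also lower in R6/2 cortex, and their effects differed by 0.31 (SE 0.07) and 0.43 (SE 0.10), each still called without 1 of the 6 libraries. In the other direction, Rpl31, a ribosomal protein, scored -0.31, 0.25 and -0.06 in PBS and -0.89, -0.79 and -0.43 in ASO, and its effects differed by -0.94 (SE 0.17), still called without 4 of the 6. NT ran from -1.08 to -0.47 and R6/2 from -0.83 to -0.24. The PBS mean lay outside the NT range in all 11 genes with the lower change under ASO, and the ASO mean lay inside it in 8 of them. In the 10 genes with the higher change, the PBS mean lay inside that range in 2 and the ASO mean in 5. These genes were picked by a test on the same values, so the counts are no separate finding. Scores of the experiments also come from separate cluster lists.

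**Figure D5:**
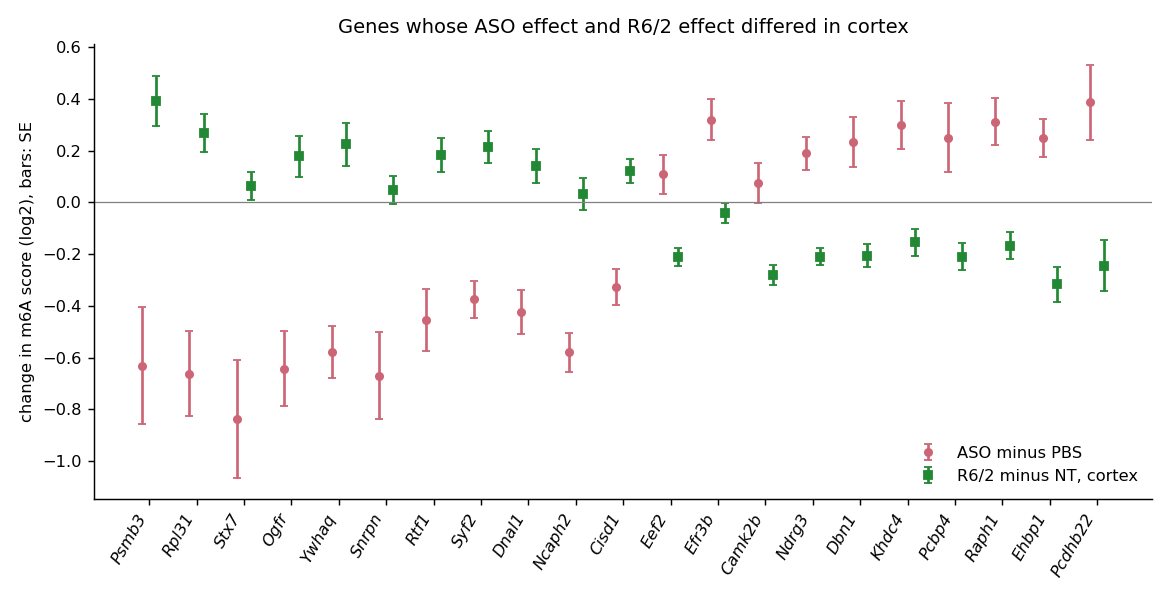
Change in gene m6A score (log2, bars SE) for ASO minus PBS and for R6/2 minus NT in cortex, for the 21 genes whose changes differed. The ASO change is the lower of the pair in 11 genes and the higher in 10.

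Sequence listed in a single treatment made up 9.11% of listed PBS bases and 9.30% of listed ASO bases. Such stretches were narrow, with a median of 34 bases in PBS and 40 in ASO. In PBS 928 of 35732 were enriched in all 3 libraries, 274 of them in 5′ UTRs, and in ASO 363 of 32572, 25 of them in 5′ UTRs. As clusters were called once per treatment, these counts have no replicate check. Of the stretches listed in both treatments, 28469 were enriched in all 6 libraries, 323 in 3 PBS and 0 ASO libraries, and 237 in 3 ASO and 0 PBS libraries.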

How the data were processed

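The authors enriched polyadenylated RNA and prepared m6A-eCLIP libraries of IP and input with a commercial kit and its analysis service; the labels name mm10. Their methods name CLIPper for reproducible peaks, and the caller of these cluster lists is not given in the sources used here. The deposited cluster lists give per cluster a −log10 p and a log2 enrichment of IP over input. Depth is not in the files. The interval sets show that clusters were called per treatment; how libraries were pooled is not given in the sources used here.

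Clusters of the 6 libraries were joined into stretches on the same strand, annotated with GENCODE vM21, and each library's score was the width-weighted mean log2 of its clusters, centred on the library median. ASO was compared with PBS by limma 3.58.1 (R 4.3.3, trended variance, Benjamini-Hochberg threshold 0.05), after a test on simulated data, and library means by two-sided exact permutation (20 labelings). The R6/2 fits took sex as a covariate. The named genes were the 8 of lowest p in each direction when none passed, Tardbp, m6A genes, and the 3 lowest-p members of each list. TDP-43 sites came from the 8 NT cortex TDP-43 libraries. The members and gene lists were chosen with earlier results of these data known. Sequences were read from the GRCm38 genome. Alternatives covered centring, filters, intervals, width, thresholds and each library left out.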

Additional observations from a re-analysis of the deposited data

How the results depend on the processing

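The count of genes called between ASO and PBS was 0 in most settings and 1 with 1 cluster of each treatment, with 90% reciprocal overlap, with 1 or more and with 6 or more stretches per gene (Ncaph2 or Rps15a), and 14 in the joint fit of 22 libraries. The count of stretches was 1 with quantile normalization and 4 with the highest cluster of a stretch. Leaving out a library gave 0 for both. The numbers did not pair the samples (correlations of deviations of -0.04, -0.01 and -0.07), and the replicate block gave 0 genes and 0 stretches; the block within sex gave 66 genes for R6/2 in cortex and 54 in place of 108 in striatum. The count of genes whose ASO and R6/2 effects differed ranged from 3 to 13 without 1 library.

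Bases covered differed by 99563 and by -28006 without PBS replicate 2, with left-out libraries giving -28006 to 260294. The coding sequence difference of 0.00653 was -0.0425 without centring, -0.0113 under the study's thresholds, -0.0250 with 90% reciprocal overlap and -0.000774 without ASO replicate 1. The 3′ UTR difference was -0.0329 without centring and -0.000364 with 90% reciprocal overlap, that of noncoding exons was 0.00117 with that overlap, and that of introns 0.0127 weighted by width. Left-out libraries gave -0.000774 to 0.0126 for the coding sequence. The 5′ UTR difference was negative in every setting run, from -0.167 to -0.0697. The joint fit, the weighting by width, the 90% overlap for transcript parts the 5′ UTR left out of the stop codon contrast and the left-out libraries of the R6/2 comparison were chosen after seeing the data. Of 309 recomputed changes of 17 named genes none reversed, and 3 of Ncaph2 passed the threshold, at -0.850, -1.09 and -0.58. All of these genes but Tardbp were picked by p on the same libraries, so a kept sign is no separate support. Reversal was judged by sign alone, and sizes could still shrink, as for Ncaph2 and Vps35 when weighted by width. The causes were not tested. With 3 libraries a treatment and unknown depth, small changes could not be resolved.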
